A study of Mus musculus with 14 samples.

Results

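Haem is built from glycine and succinyl-CoA in a chain of enzymes that begins and ends in the mitochondrion, and the liver is, after the bone marrow, the main site of its synthesis. The rate in hepatocytes is set by the first enzyme, 5-aminolevulinate synthase, whose housekeeping form Alas1 is repressed by haem and induced when haem runs short, while its erythroid form Alas2 serves developing red cells. The toxicant DDC (3,5-diethoxycarbonyl-1,4-dihydrocollidine) leads to N-alkylated porphyrins that block ferrochelatase, the last enzyme, so that protoporphyrin accumulates and precipitates in bile ducts. Haem oxygenase 1 (Hmox1) opens the haem ring and is induced by haem and by oxidative stress.

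The 9 genes described here are Alas1 and Alas2, the enzymes of the later steps Alad, Uros, Urod, Cpox, Ppox and Fech, and Hmox1. They were taken from a table of 20377 gene symbols by their symbol, with the transcript row of the highest mean where a symbol had several, and all 9 were found and passed the filter on low values. The values are RPKM, reads per kilobase of transcript, scaled to the reads of the library, so that levels can be compared between genes. Between libraries they depend on that scaling, and the median gene was higher in ductal cells than in hepatocytes, as given with the counts of calls. Apart from the mean that picks a transcript row, no measured value entered the selection by symbol. The genes themselves were chosen with earlier results of these data known.

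RNA was profiled in 14 libraries of cells sorted from livers of adult C57BL/6 chimeric mice in which mature hepatocytes carried a red fluorescent marker. Hepatocyte-derived ductal cells (5 libraries) were positive for MIC1-1C3, an antigen of duct cells, and for mTomato, negative for CD11b, CD26, CD31 and CD45, and low in side scatter. Cholangiocyte-derived ductal cells (5 libraries) had the same surface phenotype without mTomato, and hepatocytes (4 libraries) had no sort markers in their label. The sample titles name the hepatocyte-derived ducts donor-derived and the cholangiocyte-derived ducts host-derived, and those of hepatocytes give neither. Every group received 0.1% DDC for 5 to 8 weeks, so an untreated level of any gene was not analysed here and each comparison is between cell populations of injured liver. The labels do not say whether libraries of different number come from different mice, so p-values measure the spread between these samples, which may be technical in part. In bulk samples, fewer cells of a type and less RNA per cell cannot be told apart.

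The markers of hepatocytes and bile ducts followed the labels. All 6 hepatocyte markers, albumin and Hnf4a among them, were lower and all 6 biliary markers, Krt19 and Epcam among them, were higher in both ductal groups than in hepatocytes (limma, adjusted p under 0.05). The hepatocyte markers summed to 5674 to 10749 RPKM in hepatocyte-derived ductal cells, 3401 to 4680 RPKM in cholangiocyte-derived ductal cells and 46066 to 64414 RPKM in hepatocytes. Hepatocyte library 118 stood apart, with a sum over 10 macrophage markers of 627.0 RPKM against 16.5 to 32.0 RPKM in the other hepatocyte libraries. Its sum over 6 endothelial markers was 161.4 RPKM against 2.62 to 10.42 RPKM in the others. Cholangiocyte-derived libraries 118 and 220 had the highest macrophage sums among ductal cells, 166.6 and 123.5 RPKM. Library 220 was close to libraries 225 and 611 there, at 119.9 and 112.0 RPKM. These 3 libraries were set apart for transcripts of other cells, with earlier results known. Results that rest on them are given with and without them. Of 6 stellate cell and pericyte markers 5 were tested, with 1 higher in hepatocyte-derived and 5 higher in cholangiocyte-derived ductal cells against hepatocytes, and 1 higher and 3 lower in hepatocyte-derived against cholangiocyte-derived ductal cells. They summed to 970.1 to 1626 RPKM in hepatocyte-derived ductal cells, 512.1 to 887.6 RPKM in cholangiocyte-derived ductal cells and 8.26 to 131.6 RPKM in hepatocytes, highest in library 118. In the ductal groups this was mostly Rgs5, with means of 1399 and 580 RPKM. Dcn (6.99 and 61.3 RPKM), Col1a1 (3.68 and 35.6 RPKM), Lrat, Pdgfrb and Des ran the other way. Cholangiocyte-derived libraries 118 and 220 were highest of their group in all of these except Rgs5. Their Dcn was 100.66 and 136.63 RPKM against 18.01 to 30.36 RPKM in the rest of the group. The part of these markers in the results on the 9 genes was not tested. The reads per library, estimated from the smallest steps in the values of single-exon genes, were 23700000 to 33700000.

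The start regions of both synthase genes are shown because, of all genes tested, Alas2 had the pattern over the libraries closest to that of Alas1, and the genes differ in their known control. Windows of 300 bases, 250 before the transcript start and 50 after it, came from RefSeq on build GRCm38.p6. For Alas1, on chromosome 9 at chr9:106247681-106247980 on the minus strand, capitals mark matches to the 10-base motif of nuclear respiratory factor 1, with its variable base at the centre. For Alas2, on chromosome X at chrX:150547167-150547466 on the plus strand, capitals mark the match to AGATAA, the motif of GATA factors, which lies on the opposite strand and so reads reversed and complemented.
Alas1: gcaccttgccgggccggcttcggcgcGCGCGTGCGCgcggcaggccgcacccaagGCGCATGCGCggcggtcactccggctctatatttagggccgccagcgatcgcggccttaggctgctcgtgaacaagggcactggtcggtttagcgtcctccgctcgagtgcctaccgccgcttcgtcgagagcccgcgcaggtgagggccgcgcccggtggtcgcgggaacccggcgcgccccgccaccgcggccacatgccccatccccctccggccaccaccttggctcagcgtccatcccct
Alas2: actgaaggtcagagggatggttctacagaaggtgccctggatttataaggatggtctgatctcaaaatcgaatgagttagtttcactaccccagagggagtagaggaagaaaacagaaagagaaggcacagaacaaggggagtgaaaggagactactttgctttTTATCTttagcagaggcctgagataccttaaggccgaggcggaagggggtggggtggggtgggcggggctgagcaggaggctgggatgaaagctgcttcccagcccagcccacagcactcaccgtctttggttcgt

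The Alas1 window held the nuclear respiratory factor 1 motif at 2 positions, bases 27 to 36 and 56 to 65 of the window, and held neither the GATA motif nor CACGTG, an E-box of basic helix-loop-helix factors, nor TGANNNNGC, the core of the antioxidant response element. The Alas2 window held the GATA motif at bases 165 to 170 and none of the other 3. A further window of Alas1, at an upstream start, held the same 2 positions of the nuclear respiratory factor 1 motif. Among 32851 windows of the same length in the RefSeq table, 4.6% held the nuclear respiratory factor 1 motif, 11.2% AGATAA, 7.15% CACGTG and 41.3% TGANNNNGC, on either strand. Of the 7 members with a window (10 windows in all), Uros also held the nuclear respiratory factor 1 motif, Cpox also the GATA motif, Alad, Uros and Urod the E-box, and Uros and Cpox the antioxidant response element core, while Ppox held none of the 4. No overlap between matches of different motifs was searched for. A match describes the letters of the window and is not evidence of binding.

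The first and rate-setting step separated hepatocytes from both ductal groups. On the authors' build mm9, counted from 1, the Alas1 transcript spans chr9:106135786-106150285 on the minus strand. Alas1 measured 16.94, 33.45, 21.85, 19.49 and 12.65 RPKM in hepatocyte-derived ductal cells (libraries 219, 220, 225, 248 and 611), 30.33, 14.16, 25.17, 19.22 and 15.21 RPKM in cholangiocyte-derived ductal cells (libraries 118, 219, 220, 225 and 611) and 333.81, 158.57, 201.67 and 53.23 RPKM in hepatocytes (libraries 118, 225, 248 and 611). Every ductal library lay below every hepatocyte library, and the hepatocytes themselves spanned a wide range, with library 611 lowest and library 118 highest. The ductal means were 20.9 ± 7.81 RPKM in hepatocyte-derived cells and 20.8 ± 6.85 RPKM in cholangiocyte-derived cells (SD, n = 5 each), 11.2% and 11.1% of the hepatocyte mean of 187 ± 116 RPKM (SD, n = 4). On the log2(RPKM + 1) scale Alas1 fell by 2.90 ± 0.42 (SE) in hepatocyte-derived ductal cells against hepatocytes (limma, adjusted p = 1.68e-05) and by 2.89 ± 0.42 in cholangiocyte-derived ductal cells against hepatocytes (adjusted p = 1.52e-05). Both comparisons share the hepatocyte libraries. Leaving out any 1 library gave log2 fold changes between -3.41 and -2.52, at adjusted p of 1.03e-04 or less.

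Alas2, the erythroid isoenzyme, averaged 18.4 RPKM in hepatocytes, between Cpox at 20.6 and Uros at 16.7 RPKM, and was close to 0 in ductal cells. Its transcript spans chrX:146981960-147005165 on the plus strand of mm9. It measured 0.34, 1.02, 1.04, 1.15 and 0.31 RPKM in hepatocyte-derived ductal cells, 0.91, 0.37, 1.08, 0.96 and 0.31 RPKM in cholangiocyte-derived ductal cells and 26.77, 19.00, 20.48 and 7.29 RPKM in hepatocytes, in the same library order. No ductal library reached the lowest hepatocyte library, and library 611 was again the lowest hepatocyte library and library 118 the highest. On the log2(RPKM + 1) scale the difference was -3.36 ± 0.30 (SE) in hepatocyte-derived ductal cells (limma, adjusted p = 9.68e-08) and -3.39 ± 0.30 in cholangiocyte-derived ductal cells (adjusted p = 6.39e-08), each against hepatocytes. The added 1 understates this change, and with 0.1 in its place the differences were -4.42 and -4.47. The ductal values correspond to an estimated 14 to 73 reads per library and the hepatocyte values to 353 to 1314 reads.

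Red cell precursors are the tissue known for Alas2, and their other markers were scarce in these libraries. None of 7 erythroid markers passed the filter on low values, and the transcription factor gene Gata1 was listed at 0 in all 14 libraries. The 7 markers summed to 0.36 to 0.61 RPKM in hepatocyte-derived ductal cells, 0.36 to 0.51 RPKM in cholangiocyte-derived ductal cells and 0.83 to 6.89 RPKM in hepatocytes. The highest sum was in hepatocyte library 118, where 4 globin genes measured 1.35 to 1.59 RPKM, and the globins were listed at 0 in the other 3 hepatocyte libraries, whose Alas2 was 7.29 to 20.48 RPKM. Without the 3 libraries set apart for transcripts of other cells, Alas2 still passed the test in both comparisons with hepatocytes.

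The sequences and levels of the 2 synthases were compared for shared reads. In all, 1 of 2002 windows of 36 bases along the Alas2 transcript lay within 2 mismatches of any stretch of the Alas1 transcript (GENCODE vM21), although the read length is not given in the sources used here. The Alas2 level was 2.01% to 5.90% of the Alas1 level in hepatocyte-derived ductal libraries, 2.04% to 4.99% in cholangiocyte-derived ductal libraries and 8.02% to 13.7% in hepatocyte libraries. The ductal and hepatocyte ranges of this share did not overlap. The part of shared reads in the Alas2 level was not tested.

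**Figure D1:**
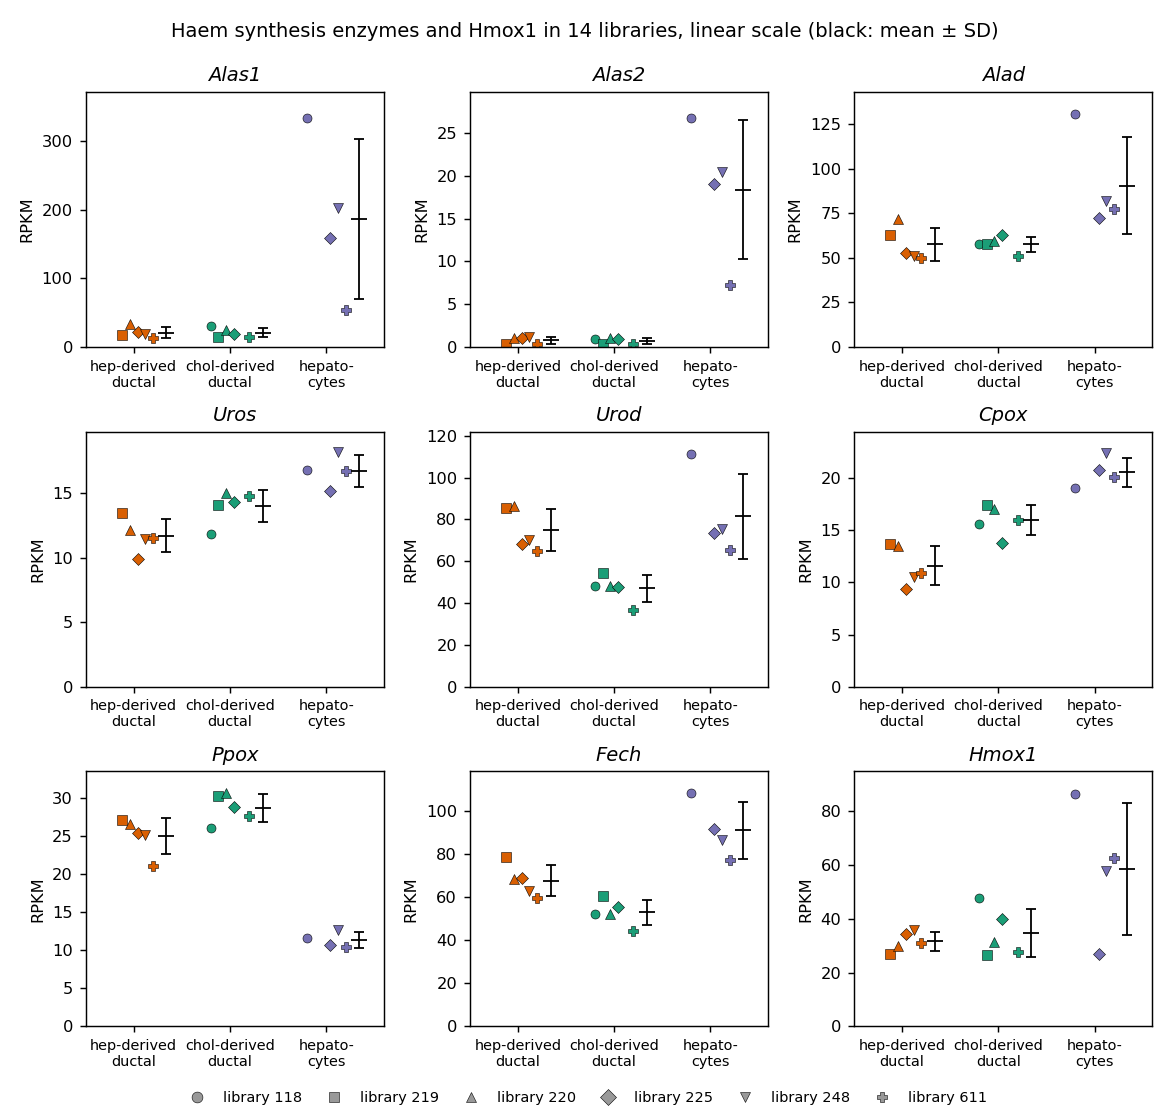
RPKM (vertical axes, linear from 0) of the 9 genes in each library, with symbols for the library number and black bars for the mean ± SD of hepatocyte-derived ductal cells (n = 5), cholangiocyte-derived ductal cells (n = 5) and hepatocytes (n = 4). Alas1 and Alas2 lie far below hepatocytes in both ductal groups, Ppox lies above them, and Urod separates the ductal groups from each other.

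Among all 12638 symbols tested, the gene whose centred log2(RPKM + 1) profile over the 14 libraries was most like that of Alas1 was Alas2, with a root mean square difference of 0.356. Hsd3b2, a steroid dehydrogenase gene, followed at 0.407 and Clec2h, a lectin gene, at 0.415. For Alas2 the closest were 9130409I23Rik at 0.241, Alas1 at 0.356 and Etnk2, an ethanolamine kinase gene, at 0.359. These are descriptions over libraries that share 3 group means, with no test.

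The middle enzymes described here were mostly lower in ductal cells, with smaller fold changes than the first. Alad, which joins 2 molecules of 5-aminolevulinate into porphobilinogen, measured 62.68, 71.52, 52.97, 50.91 and 49.67 RPKM in hepatocyte-derived ductal cells, 57.57, 57.53, 59.46, 62.57 and 51.07 RPKM in cholangiocyte-derived ductal cells and 130.60, 72.32, 81.66 and 77.38 RPKM in hepatocytes. The ductal and hepatocyte ranges did not overlap, by a margin of under 1 RPKM for hepatocyte-derived library 220 against hepatocyte library 225. Alad fell by 0.62 ± 0.16 (SE, log2 scale) in hepatocyte-derived ductal cells (limma, adjusted p = 0.00217) and by 0.60 ± 0.16 in cholangiocyte-derived ductal cells (adjusted p = 0.00240), each against hepatocytes.

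Uros and Cpox were lower than Alad and Urod in every group, and their own 3 groups stood in the same order. Uros, which closes the tetrapyrrole ring, averaged 11.7 ± 1.28 RPKM in hepatocyte-derived ductal cells, 14.02 ± 1.25 RPKM in cholangiocyte-derived ductal cells (SD, n = 5 each) and 16.7 ± 1.24 RPKM in hepatocytes (SD, n = 4). Cpox, the mitochondrial coproporphyrinogen oxidase, averaged 11.6 ± 1.90, 16.0 ± 1.43 and 20.6 ± 1.40 RPKM in the same 3 groups. Every hepatocyte library was above every ductal library for both genes. Cpox fell by 0.79 ± 0.11 in hepatocyte-derived ductal cells (limma, adjusted p = 8.44e-06) and by 0.35 ± 0.11 in cholangiocyte-derived ductal cells (adjusted p = 0.00750), each against hepatocytes on the log2 scale. Uros fell by 0.48 ± 0.09 (adjusted p = 1.92e-04) and by 0.24 ± 0.09 (adjusted p = 0.0233) in the same comparisons. The last of these calls was lost without cholangiocyte-derived library 118 (adjusted p = 0.0614), without hepatocyte library 248 (adjusted p = 0.0745) and without the 3 libraries set apart for transcripts of other cells (adjusted p = 0.0855).

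Urod, which removes carboxyl groups from uroporphyrinogen and whose deficiency causes porphyria cutanea tarda, differed between the ductal groups. Its transcript spans chr4:116662822-116666980 on the minus strand of mm9. It measured 85.24, 86.62, 68.45, 70.17 and 64.99 RPKM in hepatocyte-derived ductal cells, 48.29, 54.12, 48.36, 47.48 and 36.77 RPKM in cholangiocyte-derived ductal cells and 111.26, 73.60, 75.34 and 65.28 RPKM in hepatocytes. The hepatocyte-derived ductal libraries overlapped hepatocytes and lay wholly above the cholangiocyte-derived ductal libraries. The difference of hepatocyte-derived ductal cells from hepatocytes was -0.09 on the log2 scale (95% interval -0.42 to 0.23, limma, adjusted p = 0.579). That of cholangiocyte-derived ductal cells was -0.76 ± 0.15 (SE, adjusted p = 2.83e-04).

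Ppox, the protoporphyrinogen oxidase of the penultimate step, was the single gene of the 9 that was higher in ductal cells. Its transcript spans chr1:173207123-173211317 on the minus strand of mm9. It measured 27.01, 26.57, 25.37, 25.04 and 20.97 RPKM in hepatocyte-derived ductal cells, 26.05, 30.15, 30.54, 28.76 and 27.52 RPKM in cholangiocyte-derived ductal cells and 11.55, 10.64, 12.65 and 10.36 RPKM in hepatocytes. Both ductal groups lay wholly above hepatocytes, at 221% and 253% of the hepatocyte mean. Ppox rose by 1.08 ± 0.09 (SE, log2 scale) in hepatocyte-derived ductal cells (limma, adjusted p = 3.03e-08) and by 1.27 ± 0.09 in cholangiocyte-derived ductal cells (adjusted p = 3.50e-09), each against hepatocytes. Most genes of the table were higher in ductal cells, and the change of Ppox exceeded the median of all tested genes by 0.41 and 0.51.

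Fech, the enzyme that inserts iron into protoporphyrin and is blocked under DDC, was lower in both ductal groups. It measured 78.79, 68.62, 69.13, 62.71 and 59.41 RPKM in hepatocyte-derived ductal cells, 52.35, 60.51, 52.03, 55.31 and 44.40 RPKM in cholangiocyte-derived ductal cells and 108.58, 91.86, 86.63 and 77.15 RPKM in hepatocytes. The cholangiocyte-derived libraries lay wholly below hepatocytes, while hepatocyte-derived library 219 exceeded the lowest hepatocyte library. Fech fell by 0.42 ± 0.11 (SE, log2 scale) in hepatocyte-derived ductal cells (limma, adjusted p = 0.00342) and by 0.77 ± 0.11 in cholangiocyte-derived ductal cells (adjusted p = 1.60e-05), each against hepatocytes. The profiles most like that of Fech were those of Mtch2, Osgepl1 and Lrrc28, at root mean square differences of 0.0938, 0.0992 and 0.100 over the 14 libraries.

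In hepatocyte-derived ductal cells against hepatocytes, 1 of the 9 genes was called higher and 7 lower, where 81% of all tested genes were called, 66.2% higher and 14.8% lower. In cholangiocyte-derived ductal cells against hepatocytes, 1 was higher and 8 lower, where 84.4% of all tested genes were called, 67.1% higher and 17.4% lower. Over the whole table the median gene differed by 0.67 and 0.76 on the log2 scale in these comparisons, so the table as deposited was shifted towards higher values in ductal cells. After rescaling by median ratios the medians were 0.02 and 0.06, the calls over all genes were 4735 higher and 4590 lower in the first comparison and 5132 and 4798 in the second, and the members' calls were 1 higher and 8 lower in each. Quantile normalization gave 4596 and 4136, and 4891 and 4769, over all genes. Under rescaling, Ppox was higher by 0.32 and 0.48, which passed the test, and Urod in hepatocyte-derived ductal cells was called lower by 0.89 (adjusted p = 5.74e-05). Without the 3 libraries set apart for transcripts of other cells, 1 was higher and 6 lower in each comparison, since Hmox1 passed in neither and Uros not in the second. The groups did not overlap for 6 of the 9 genes in the first comparison and 8 of 9 in the second, where this held for 72.2% and 75.2% of all tested genes.

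**Figure D2:**
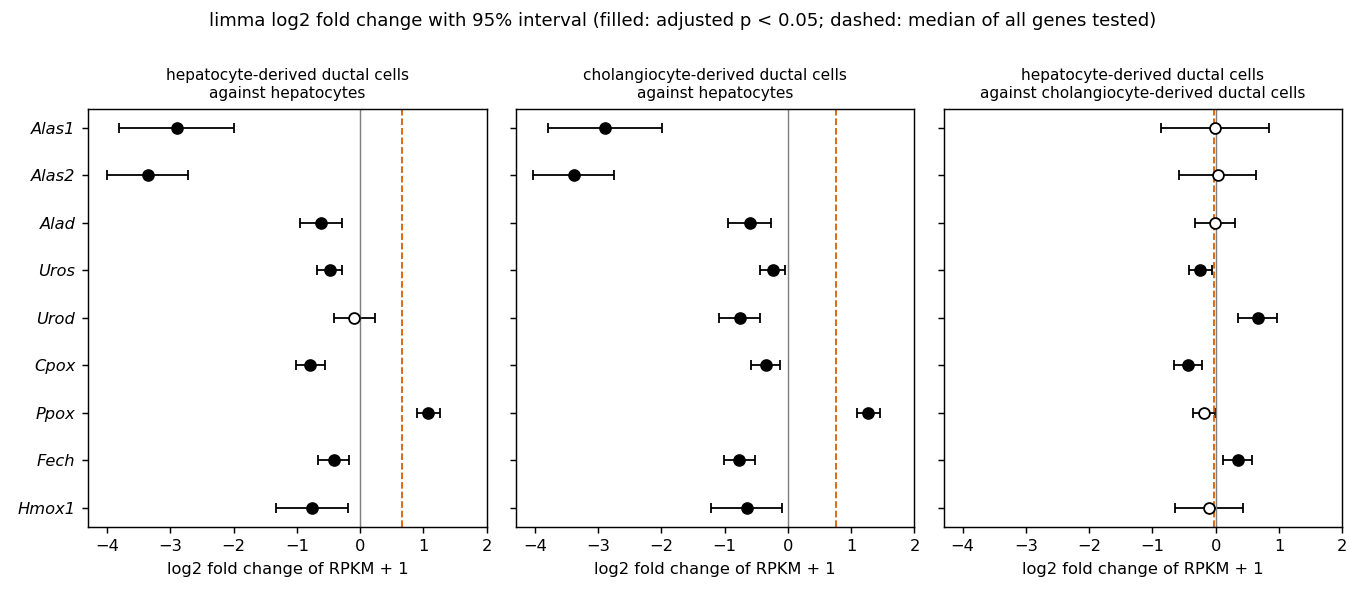
Log2 fold change of RPKM + 1 (horizontal axes) for each of the 9 genes in the 3 comparisons, with the 95% interval from limma, filled where the adjusted p was under 0.05. The dashed line is the median of all tested genes, 0.67, 0.76 and -0.03 from left to right, and the intervals of Alas1 and Alas2 against hepatocytes end at or below -1.98.

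The balance of the first and the last enzyme changed with cell population. The Alas1 level was 0.213 to 0.487 of the Fech level in hepatocyte-derived ductal libraries, 0.234 to 0.579 in cholangiocyte-derived ductal libraries and 0.690 to 3.07 in hepatocyte libraries, on the RPKM scale. Alas1 exceeded Fech in hepatocyte libraries 118, 225 and 248 and was below it in hepatocyte library 611 and in all ductal libraries. The log2 ratio was lower by 2.48 in hepatocyte-derived ductal cells and by 2.12 in cholangiocyte-derived ductal cells than in hepatocytes (two-sided exact permutation test, p = 0.0159 for each, 0.0476 after Benjamini-Hochberg adjustment over 6 ratio tests). With 5 against 4 libraries a p of 0.0159 is the smallest that this two-sided test can give, and the adjusted p passed 0.05 narrowly. It was 0.0536 to 0.107 when any 1 library was left out and 0.375 within library numbers, where 3 pairs cannot reach the threshold, while the difference itself stayed between -2.91 and -1.84. Between the ductal groups the log2 ratio differed by -0.36 (adjusted p = 0.246).

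By mean RPKM the order within hepatocytes began with Alas1, followed by Fech at 91.1 ± 13.2, Alad at 90.5 ± 27.0 and Urod at 81.4 ± 20.4 RPKM, which differed by less than their spread (SD, n = 4). Hmox1 came next, and Cpox, Alas2, Uros and Ppox were lowest. In hepatocyte-derived ductal cells the order began with Urod at 75.1 ± 10.1, Fech at 67.7 ± 7.41 and Alad at 57.6 ± 9.34 RPKM (SD, n = 5), with overlapping library values from each to the next, and Alas1 was the sixth. In cholangiocyte-derived ductal cells it began with Alad at 57.6 ± 4.21, Fech at 52.9 ± 5.85 and Urod at 47.0 ± 6.31 RPKM (SD, n = 5), again with overlapping library values from each to the next, and Alas1 was the sixth there too.

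Hmox1, the inducible haem oxygenase, was lower on average in ductal cells, with much variation among hepatocytes. It measured 26.89, 29.88, 34.35, 36 and 30.93 RPKM in hepatocyte-derived ductal cells, 47.91, 26.67, 31.46, 39.85 and 27.78 RPKM in cholangiocyte-derived ductal cells and 86.55, 26.77, 57.80 and 62.54 RPKM in hepatocytes. Hepatocyte library 225 lay below the hepatocyte-derived ductal libraries and within the range of the cholangiocyte-derived ones, and the other 3 hepatocyte libraries lay above all ductal libraries. Hmox1 fell by 0.76 ± 0.26 (SE, log2 scale) in hepatocyte-derived ductal cells against hepatocytes (limma, adjusted p = 0.0158) and by 0.65 ± 0.26 in cholangiocyte-derived ductal cells against hepatocytes (adjusted p = 0.0318). Hmox2, the constitutive oxygenase, averaged 58.2 ± 4.34 and 51.5 ± 3.29 RPKM in the ductal groups (SD, n = 5 each) and 54.2 ± 11.5 RPKM in hepatocytes (SD, n = 4), and passed no test as deposited. The log2 ratio of Hmox1 to Hmox2 was lower by 0.88 in hepatocyte-derived ductal cells (two-sided exact permutation test, p = 0.0476, adjusted p = 0.0952) and by 0.60 in cholangiocyte-derived ductal cells (adjusted p = 0.167) than in hepatocytes.

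The Hmox1 calls depended on single libraries. The call in cholangiocyte-derived ductal cells was lost on leaving out any of 6 single libraries (hepatocyte 118, 248 or 611, or cholangiocyte-derived 219, 220 or 611, adjusted p = 0.0573 to 0.118) and in a fit on these 2 groups alone (adjusted p = 0.0721), and that in hepatocyte-derived ductal cells on leaving out hepatocyte library 118. Without hepatocyte library 118 the differences were -0.53 in hepatocyte-derived ductal cells (limma, adjusted p = 0.0595) and -0.43 in cholangiocyte-derived ductal cells (adjusted p = 0.118), and without hepatocyte library 225 they were -1.09 (adjusted p = 1.23e-04) and -0.98 (adjusted p = 2.63e-04). With the library number as a block, neither call passed the test. The difference was -0.49 in hepatocyte-derived (adjusted p = 0.113, or 0.0773 with 220 as a further number) and -0.50 in cholangiocyte-derived ductal cells (adjusted p = 0.104, or 0.0786). Macrophages are known for high Hmox1, since they recycle haem, and hepatocyte library 118 had both the highest Hmox1 and the highest macrophage sum. That sum was 24.4 to 76.8 RPKM in hepatocyte-derived ductal cells, 47.9 to 166.6 RPKM in cholangiocyte-derived ductal cells and 16.5 to 627.0 RPKM in hepatocytes, and of 10 macrophage markers 8 were tested, with 1 higher and 1 lower in the first comparison and 1 higher in the second. The list did not run in 1 direction. Csf1r, a receptor gene of macrophages, was higher in both ductal groups than in hepatocytes and made up 22.82 of the 24.42 RPKM of hepatocyte-derived library 219, where Marco, Cd163 and Timd4 of the same list were listed at 0. The marker that was lower in the first comparison was Cd68, a lysosomal protein gene. In hepatocyte libraries 225, 248 and 611, whose Hmox1 was 26.77, 57.80 and 62.54 RPKM, the Kupffer cell gene Clec4f measured 0.65, 1.21 and 1.00 RPKM and Cd68 measured 23.66, 22.45 and 8.10 RPKM. The part of macrophage or endothelial transcripts in the Hmox1 level of hepatocyte library 118 was not tested. The profiles most like that of Hmox1 were those of Ctsb, 1810027O10Rik and Atp5e, at root mean square differences of 0.299 to 0.309.

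**Figure D3:**
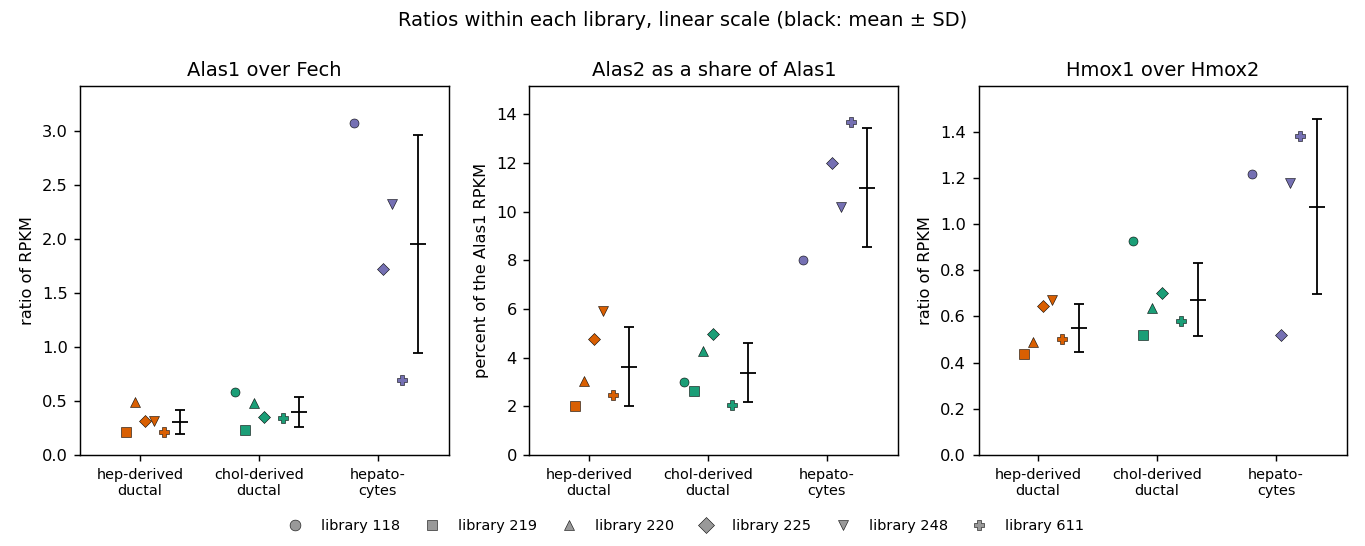
Ratios within each library, on linear vertical axes from 0, for hepatocyte-derived ductal cells, cholangiocyte-derived ductal cells and hepatocytes, with black bars for the mean ± SD. The RPKM ratio of Alas1 to Fech and the level of Alas2 as a percent of Alas1 are higher in all hepatocyte libraries than in any ductal library, while hepatocyte library 225 falls among ductal cells in the ratio of Hmox1 to Hmox2.

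The ductal populations differ in cell of origin and, by their titles, as donor-derived and host-derived ducts, which cannot be told apart here. A direct comparison asks whether the pathway differs between them. Urod and Fech were higher and Cpox and Uros lower in hepatocyte-derived ductal cells, and the remaining 5 genes passed no test. Of the 9 genes 2 were called higher and 2 lower in hepatocyte-derived against cholangiocyte-derived ductal cells, where 36.2% of all tested genes were called (15.1% higher and 21% lower). Urod rose by 0.67 ± 0.14 (SE, log2 scale, limma, adjusted p = 0.00189) and Fech by 0.35 ± 0.11 (adjusted p = 0.0182), while Cpox fell by 0.44 ± 0.10 (adjusted p = 0.00319) and Uros by 0.24 ± 0.09 (adjusted p = 0.0399). The groups did not overlap for Urod and Cpox, 2 of the 9 genes, where this held for 33.8% of all tested genes. The Fech call was lost without hepatocyte-derived library 219 (adjusted p = 0.0528) or cholangiocyte-derived library 611 (adjusted p = 0.0510). The Uros call was lost without any of 8 single libraries (adjusted p up to 0.109). It was also lost with the block on the title numbers (-0.27, limma, adjusted p = 0.0794) and after quantile normalization (-0.18, adjusted p = 0.0935).

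Alas1 differed by -0.01 between the ductal groups (95% interval -0.86 to 0.85), Alas2 by 0.03 (-0.57 to 0.63), Alad by -0.01 (-0.33 to 0.30) and Hmox1 by -0.10 (-0.64 to 0.43), so differences inside these intervals are not excluded. Ppox differed by -0.19 (95% interval -0.36 to -0.02, limma, adjusted p = 0.0829). It passed the test with the library number as a block that includes 220 (-0.22, adjusted p = 0.0348) and with library weights (-0.19, adjusted p = 0.0246). Of 6 hepatocyte markers, 5 were higher in hepatocyte-derived than in cholangiocyte-derived ductal cells. Albumin was at 13.1% and 8.07% of its hepatocyte mean in these groups, Hnf4a at 55.1% and 24.7%, Urod at 92.3% and 57.8%, and Fech at 74.4% and 58.1%. The part of the hepatocyte transcripts in the differences of Urod and Fech was not tested.

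Of 5 other genes around haem breakdown, 3 fell and 2 passed no test in each ductal group against hepatocytes, and none of the 5 passed a test between the ductal groups. Over all tested genes, 14.8% and 17.4% fell against hepatocytes, and 36.2% were called between the ductal groups. Blvrb, a biliverdin reductase, fell (log2 fold changes -2.16 and -2.61), as did Ugt1a1, which conjugates bilirubin (-3.71 and -4.05, limma, adjusted p of 1.42e-05 or less for all 4). Por, which passes electrons to haem oxygenase and to cytochromes P450, fell too (-1.16 and -1.48). The Ugt1a1 means were 29.5 ± 11.7, 23.0 ± 7.69 and 378 ± 10.2 RPKM in hepatocyte-derived ductal cells, cholangiocyte-derived ductal cells and hepatocytes. The 2 genes not called here became lower after rescaling by median ratios, which made all 5 lower in both comparisons. Without the 3 libraries set apart for transcripts of other cells, 2 of the 5 were higher in the first comparison and 1 in the second, and 3 were lower in each.

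Of 19 tested genes of haem and porphyrin transport, 2 rose and 12 fell in hepatocyte-derived ductal cells and 1 rose and 13 fell in cholangiocyte-derived ductal cells, each against hepatocytes, with median log2 fold changes of -0.73 and -0.86. Over all tested genes, 66.2% rose and 14.8% fell in the first comparison, and 67.1% rose and 17.4% fell in the second. Flvcr1 and Flvcr2, the remaining members of that list, were not analysed here. Hpx, which encodes the plasma haem binder hemopexin, averaged 907 ± 172, 355 ± 152 and 9189 ± 1789 RPKM in hepatocyte-derived ductal cells, cholangiocyte-derived ductal cells and hepatocytes. Hpx fell (log2 fold changes -3.34 and -4.82), as did Hp, for haptoglobin, which binds free haemoglobin (-1.98 and -3.54, limma, adjusted p of 3.51e-07 or less for all 4). Hebp1, a haem-binding protein gene (-3.10 and -3.41), Pgrmc1, a haem-binding membrane protein gene (-2.08 and -2.56), and Abcb6, a porphyrin transporter gene (-1.81 and -1.99), fell in both comparisons. After rescaling none rose and 18 fell in each comparison.

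Between the ductal groups 9 of the 19 transport genes were higher in hepatocyte-derived cells, none was lower and 10 passed no test. Over all tested genes 15.1% were higher and 21% lower in this comparison. Hp was higher by 1.56 (limma, adjusted p = 1.28e-05), Hpx by 1.48 (adjusted p = 0.00143) and Pgrmc1 by 0.48 (adjusted p = 0.0195) on the log2 scale. Abcg2, which exports protoporphyrin and was chosen for mention after its values were seen, averaged 64.8 ± 9.26 RPKM in hepatocyte-derived ductal cells, 34.6 ± 6.66 RPKM in cholangiocyte-derived ductal cells and 69.1 ± 25.7 RPKM in hepatocytes. It was higher by 0.90 ± 0.23 (SE) in hepatocyte-derived than in cholangiocyte-derived ductal cells (adjusted p = 0.00681) and differed by -0.002 from hepatocytes (adjusted p = 0.994). Hepatocyte library 611, lowest in Alas1 and Alas2, was also the lowest hepatocyte library for Abcg2, at 32.07 RPKM against 73.66 to 90.71 RPKM in the other 3.

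Regulators of Alas1 and Hmox1 moved in both directions. Of 15 such genes, 9 rose and 4 fell in hepatocyte-derived ductal cells against hepatocytes, where 66.2% of all tested genes rose and 14.8% fell. In cholangiocyte-derived ductal cells 9 rose and 5 fell, where 67.1% of all tested genes rose and 17.4% fell. After rescaling by median ratios the counts among the 15 were 4 and 6, and 5 and 8. Without the 3 libraries set apart for transcripts of other cells, they were 9 and 5, and 6 and 5. Nr1i3 and Nr1i2 encode the xenobiotic receptors CAR and PXR, which induce Alas1 in liver. Nr1i3 averaged 1.44 ± 0.50 RPKM in hepatocyte-derived ductal cells, 2.34 ± 1.10 RPKM in cholangiocyte-derived ductal cells and 47.5 ± 15.2 RPKM in hepatocytes, and fell (log2 fold changes -4.29 and -3.88, limma, adjusted p = 2.82e-09 and 4.66e-09). Nr1i2 fell too (-0.76 and -1.08).

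The other leading regulators were higher in ductal cells. Nfe2l2, which encodes NRF2, the activator of Hmox1, measured 137.88 to 177.22 RPKM in hepatocyte-derived ductal libraries, 126.02 to 175.10 RPKM in cholangiocyte-derived ductal libraries and 34.40 to 57.25 RPKM in hepatocyte libraries, with no overlap. It rose by 1.66 and 1.65 against hepatocytes (limma, adjusted p = 4.79e-08 and 3.57e-08). Nrf1, for nuclear respiratory factor 1, rose by 1.25 and 1.14, and Ppargc1a, for the coactivator PGC-1alpha that drives Alas1 in fasting, by 0.88 and 0.94. After rescaling the increases were smaller, 0.87 and 0.82 for Nfe2l2, 0.55 and 0.41 for Nrf1 and 0.27 and 0.30 for Ppargc1a, and each still passed the test. Quantile normalization left Nfe2l2 higher by 1.66 and 1.69 and Nrf1 by 0.35 and 0.14 (the second at adjusted p = 0.191), and turned Ppargc1a to -0.13 and -0.25, neither of which passed the test. Between the ductal groups 3 of the 15 regulators were higher and 1 lower in hepatocyte-derived cells, as were 15.1% and 21% of all tested genes. Nr1i2 was among those higher, by 0.33 (limma, adjusted p = 0.00561). The part of the regulators in the levels of Alas1 and Hmox1 was not tested.

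**Figure D4:**
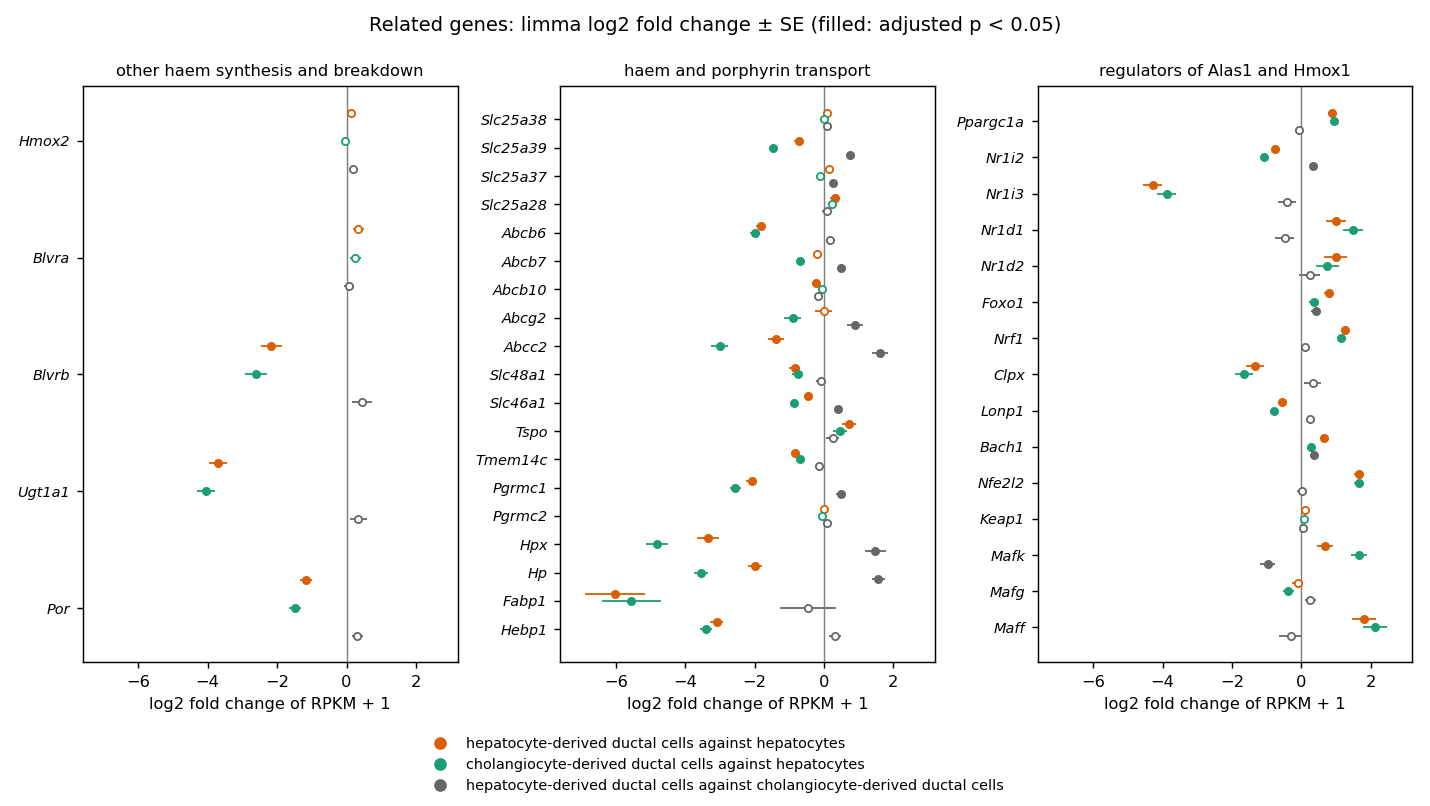
Log2 fold change of RPKM + 1 (horizontal axes) ± SE from limma for the tested genes of 3 related lists, with the comparison given by colour and filled circles where the adjusted p was under 0.05. Transport and breakdown genes lie mostly left of 0 against hepatocytes, while Nfe2l2 and Nrf1 lie right of 0, and Ppargc1a does so as deposited but not under quantile normalization.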

How the data were processed

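The authors deposited 1 table of RPKM values, rounded to 2 decimals, with 26005 transcript rows and 14 library columns. The values were made with Bowtie 0.12.7 and CASAVA on build mm9, per the submitters' processing notes, and neither the counting program nor the read length is stated there. Total RNA of 75 to 200 ng was prepared with the Illumina TruSeq kit, version 2, per the labels' protocols, which does not mark strand, so a gene and an antisense partner cannot be told apart. Of the 14 columns, 12 matched a sample title. The remaining 2 carry the number 220 where the titles carry 120, and were matched to their group. The design text gives 3 hepatocyte samples, and 4 were used. No pair of libraries shared more than 0.426% of identical values.

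For each of 20377 symbols the row with the highest mean was used (3507 had several). Deposited starts are 0-based: among 1108 rows of olfactory receptors, whose coding exon is single, 934 had a span divisible by 3 on that reading. They are printed counted from 1. The test was limma 3.58.1 (R 4.3.3) on log2(RPKM + 1), over the 12638 symbols with at least 1 RPKM in 4 libraries, with 3 group means fitted to all 14 libraries, a mean-variance trend and Benjamini-Hochberg adjustment, calling genes at an adjusted p under 0.05. The added 1 makes fold changes of low genes too small. Log2 ratios of 2 genes within a library were compared by two-sided exact permutation tests (scipy 1.17.1), adjusted over 6. Depth was estimated from 1238 single-exon rows and limits low values, which also carry rounding error. The steps were tested on simulated data.

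The genes and lists were chosen with earlier results of these data known. All 9 genes are given in every comparison. A related gene is named if its mean reached 5 RPKM in some group and it was called in a comparison, up to 5 per list by adjusted p. Likeness is the root mean square difference of centred profiles, with the 3 closest symbols given. Deviations of same-numbered libraries correlated by 0.212 to 0.797 between the ductal groups. With hepatocytes they correlated by 0.133 to 0.512 for cholangiocyte-derived and 0.0208 to 0.193 for hepatocyte-derived ductal cells. The ranges with hepatocytes overlap and come from the data tested, so they do not settle which libraries are paired. The main test left the numbers out. The alternatives were other pseudocounts, filters, scalings, rows, fits and weights, a replicate block, and leaving out libraries, of which leaving out the 3 libraries set apart for transcripts of other cells, a term for the style of the column names, and the fit on libraries 225, 248 and 611 were chosen after seeing the data. Some genes of the lists, and genes outside them, are not reported here.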

Additional observations from a re-analysis of the deposited data

Results flagged for a closer look

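Among 33 groups of 4 or 5 values (the 9 genes and the 2 within-library ratios in 3 groups), 2 held a library far from the rest of its group, and chance flags about 1 in 20 groups. Alad in hepatocyte library 118 was 130.6 RPKM, where the other hepatocyte libraries lay between 72.32 and 81.66 RPKM. This library also had the highest sums of macrophage and of endothelial markers, whose part in the Alad level was not tested. Without it Alad still passed the test in both ductal groups against hepatocytes, at -0.43 and -0.42 on the log2 scale. The log2 ratio of Hmox1 to Hmox2 in hepatocyte library 225 was -0.92, where the other hepatocyte libraries lay between 0.23 and 0.46. It came from a low Hmox1, 26.77 RPKM, with Hmox2 at 51.45 RPKM.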

How the results depend on the processing

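Over all alternatives run, Alas1, Alas2, Alad, Cpox, Ppox and Fech kept their direction and call in both comparisons with hepatocytes. The counts of called genes stayed within 1.5 times, except that library weights gave 6911 between the ductal groups in place of 4570, and leaving out 1 library gave 9986 to 10603, 10435 to 11038 and 4014 to 5691. The replicate block (numbers in the titles) gave 10174, 10576 and 3787, and with 220 as a further number 10355, 10758 and 4960. It changed the calls named beside the results and no others among the 9 genes. Whether the numbers pair hepatocyte-derived ductal cells with hepatocytes is not settled, and hepatocyte-derived library 248 did not correlate best with its own number. Library weights ended both Hmox1 calls (-0.32 and -0.29). Without 1 library the Alas1 to Fech log2 ratio ranged from -2.91 to -2.20 in hepatocyte-derived ductal cells and from -2.55 to -1.84 in cholangiocyte-derived ductal cells, with adjusted p above 0.05 throughout. It was -2.20 and -2.15 without the 3 libraries, -2.29 and -1.97 on libraries 225, 248 and 611 alone, and -2.29 and -1.87 with the replicate block, also above 0.05, where fewer libraries raise the smallest p.

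Direction turned for values near 0 that passed no test. Between the ductal groups Alas1 became 0.024 after rescaling, 0.038 after quantile normalization, 0.065 and 0.139 with the block, 0.29 without the 3 libraries, 0.12 with the column style and 0.036 on libraries 225, 248 and 611. Alad became 0.021 after rescaling, 0.027 and 0.079 with the block, 0.0030 without the 3 libraries and 0.055 with the column style. Hmox1 became 0.011 with the block on title numbers, 0.024 without the 3 libraries and 0.017 on libraries 225, 248 and 611. Leaving out 1 library gave ranges of -0.19 to 0.14 for Alas1, -0.062 to 0.13 for Alas2, -0.094 to 0.036 for Alad and -0.19 to 0.018 for Hmox1. Urod in hepatocyte-derived ductal cells against hepatocytes became 0.0045 after quantile normalization, 0.064 without hepatocyte library 118 and 0.064 without the 3 libraries. The cause was not tested. Depth limits Alas2 in ductal cells most.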
